A study of Mus musculus with 2 samples.

Results

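The Mir322-Mir503-Mir351-Mir542-Mir450 cluster is a group of 7 microRNA (miRNA) genes on the mouse X chromosome, taken here as Mir322, Mir503, Mir351, Mir542, Mir450-2, Mir450-1 and Mir450b. They were chosen by name as the members of one polycistronic cluster and make up 7 of the 2202 miRNA genes counted. The libraries came from C2C12 myotubes. C2C12 is a myoblast line from injured thigh muscle of C3H mice, and its cells fuse into multinucleated muscle fibres in culture. The series held 1 group of 2 libraries, biological replicates 1 and 2, each from a separate biosample of cells differentiated for 72 h, with no treatment and no undifferentiated control. Both come from one cell line, so the spread between them covers separate cultures of that line and not separate animals.

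A polycistronic miRNA cluster is copied as one long primary transcript, from which each hairpin is cut out and trimmed to a short mature RNA that guides silencing of messenger RNAs. Pairing with a target rests mainly on the seed, bases 2 to 8 of the mature RNA. miR-322 (called miR-424 in human) and miR-503 are known from C2C12 work as miRNAs that are induced in differentiation and repress the cell cycle phosphatase Cdc25a. They belong to the wider miR-15/16 group, which restrains cyclins and cell division. miR-351 has the seed of the miR-125 family, and miR-542-3p is known from human cells as a repressor of survivin, a regulator of cell division and survival.

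The members differ in whether their seed occurs elsewhere in the genome. Their mature sequences, printed here for the arms discussed, are RefSeq sequences on GRCm38.p6, found for all 7 members under 13 mature names, with the seed in capitals. The first set shows miR-322-5p and miR-503-5p beside 2 members of the miR-15/16 group.
miR-322-5p: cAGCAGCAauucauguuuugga
miR-503-5p: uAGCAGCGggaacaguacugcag
miR-15a-5p: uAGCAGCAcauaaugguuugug
miR-16-5p: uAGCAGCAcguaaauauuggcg
With positions counted from 1 at the 5′ end, the seed of miR-503-5p departs from that of miR-322-5p by the single change A8G. In RefSeq, 9 other mature miRNAs from 10 genes carry the exact miR-322-5p seed, and no other carries that of miR-503-5p.

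The second set shows miR-351-5p and the miR-125 family. All have the same first 8 bases. Compared position by position from the 5′ end without gaps, miR-351-5p and miR-125b-5p match at 10 of 22, and an alignment with gaps was not made.
miR-351-5p: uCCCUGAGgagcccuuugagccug
miR-125a-5p: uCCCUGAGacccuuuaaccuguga
miR-125b-5p: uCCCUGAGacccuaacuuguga

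The third set holds the downstream members, and it bears on which of their reads could be assigned to one gene.
miR-542-5p: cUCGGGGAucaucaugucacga
miR-542-3p: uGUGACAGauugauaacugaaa
miR-450a-5p: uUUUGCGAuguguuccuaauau
miR-450a-2-3p: aUUGGGGAugcuuugcauucau
miR-450a-1-3p: aUUGGGAAcauuuugcauaaau
miR-450b-5p: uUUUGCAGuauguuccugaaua
miR-450b-3p: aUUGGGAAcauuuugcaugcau
Mir450-1 and Mir450-2 encode the identical miR-450a-5p, and their hairpins share an exact run of 25 bases. A read of that arm maps to both genes and belongs to the multimapping line of the tables, which no gene receives, so the counts of Mir450-1 and Mir450-2 are uncertain and lack such reads. The 3p arms of these copies differ at 6 of 22 positions (A7G, C9U, A10G, U11C, A19U and A20C, from miR-450a-1-3p to miR-450a-2-3p). The 3p arms of Mir450-1 and Mir450b are identical over their first 18 bases and differ by A19G and A20C. Mir322, Mir503, Mir351 and Mir542 share no run of 14 or more bases with any other of the 2202 annotated hairpins, the longest being 13 bases for Mir322 and Mir351. Mir450b shares at most 19 bases.

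All 7 genes lie on the minus strand of the mm10 (GRCm38) X chromosome within 6353 bases, between the protein-coding genes Plac1 and Hprt, and none overlaps an annotated gene other than a miRNA gene. In the direction of transcription Mir322 (ENSMUSG00000065418.1, chrX:53054255-53054349) comes first. Mir503 (ENSMUSG00000076122.1, chrX:53053984-53054054) follows after 200 bases and Mir351 (ENSMUSG00000065503.1, chrX:53053255-53053353) after a further 630 bases. A gap of 3767 bases, which holds the long non-coding RNA gene Gm28730, separates them from Mir542 (ENSMUSG00000076140.1, chrX:53049403-53049487). Mir450-2 (ENSMUSG00000076399.1, chrX:53048299-53048367) lies 1035 bases beyond, then Mir450-1 (ENSMUSG00000065486.1, chrX:53048154-53048244) after 54 bases and Mir450b (ENSMUSG00000076050.1, chrX:53047997-53048078) after 75 bases. The non-coding gene C430049B03Rik ends 696 bases upstream of Mir322 on the same strand.

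**Figure D1:**
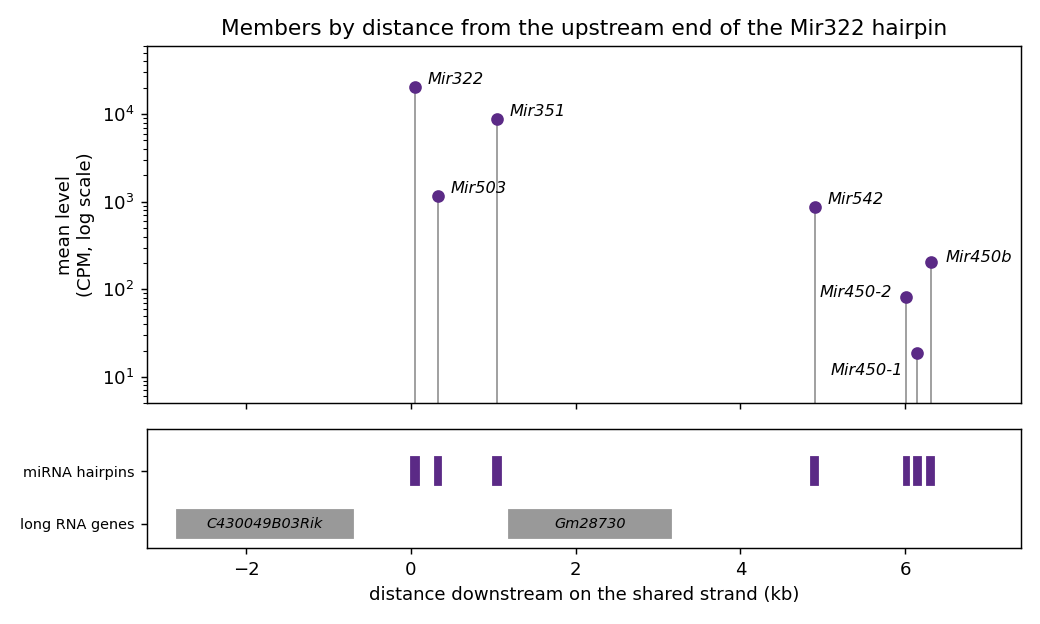
Map of the cluster: the upper panel gives the mean level of each member (CPM over the 2 libraries, log axis) against the distance in kb downstream of the upstream end of the Mir322 hairpin, and the lower panel draws the hairpins and the nearest long RNA genes to scale. Mir322 and Mir351 in the upstream group stand highest, at 20298 and 8764 CPM, and Mir450-1 in the downstream group lowest, at 18.6 CPM.

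Reads assigned to the own strand of a miRNA gene numbered 7581366 in replicate 1 and 9865298 in replicate 2, and levels are given as CPM, the usual depth-scaled read count with these reads as the total. The limit that a count of 0 allows, 3 reads, was 0.396 CPM for replicate 1 and 0.304 CPM for replicate 2. Counts were made per hairpin gene, so the 5p and 3p arms of a member cannot be told apart. With mature lengths of 21 to 24 bases no scaling by length was applied. How well each sequence was recovered in the libraries was not measured. Order and ratios between genes are therefore those of reads, and the same order in both libraries does not extend them to RNA amounts. Intervals cover counting error only, since the labels mention no molecular identifiers. The summed level of the muscle marker miRNAs was 355315 CPM in replicate 1, against 428275 CPM in replicate 2. Fibroblast and smooth muscle markers summed to 133099 and 70146 CPM in these libraries, blood markers to 104.7 and 183 CPM and the endothelial marker Mir126a to 217 and 42.9 CPM. Epithelial markers summed to 8.71 and 5.47 CPM, with Mir200a and Mir429 at 0 in both libraries, and of 6 neuronal markers 5 were at 0 in both and Mir9-3 had 1 read in replicate 2. Reads that map to several copies of a gene are in no count. Markers in numbered copies, such as the Mir124a, Mir9, Mir1a and Mir133a genes, may therefore lack reads. A low value or a 0 of such a marker is no measure of absence. Less RNA per cell and fewer cells of a type cannot be told apart in these bulk samples.

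Every member of the cluster was present in both libraries. All 7 genes reached 2 CPM in both, a level reached by 274 of all 2202 genes (12.4%). Together they took 3.72% of miRNA reads in replicate 1 (95% exact Clopper-Pearson interval 3.70% to 3.73%) and 2.56% in replicate 2 (2.55% to 2.57%), or 3.14% ± 0.817 (SD, n = 2). Reads were unevenly spread over the members. Mir322, Mir503 and Mir351, the upstream group, held 96.8% of the cluster's reads in replicate 1 and 95.5% in replicate 2, and Mir542 with the 3 Mir450 genes held 3.21% and 4.46%. Reads of miR-450a-5p are in no gene's count, so the downstream share may be too low.

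Mir322 gives miR-322, the differentiation-linked member named above, and had the highest level of the cluster. It had 27578 CPM (209082 reads) in replicate 1 and 13017 CPM (128413 reads) in replicate 2, a mean of 20298 ± 10297 CPM (SD, n = 2). It ranked ninth among all genes in replicate 1 and eleventh in replicate 2. Mir322 made up 74.2% of the cluster's reads in replicate 1 but 50.8% in replicate 2.

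Mir503, the close partner of Mir322 with the changed seed base, had far fewer reads, with its hairpin 200 bases away. Its level was 1329.8 CPM (10082 reads) in replicate 1 and 969 CPM (9555 reads) in replicate 2, with a mean of 1149 ± 255 CPM (SD, n = 2). Mir322 exceeded it 20.7-fold in replicate 1 and 13.4-fold in replicate 2. As a share of the cluster Mir503 was nearly even, at 3.58% in replicate 1 and 3.78% in replicate 2.

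Mir351, the miR-125-like member, was the other abundant gene, with 7055 CPM (53488 reads) in replicate 1 and 10473 CPM (103322 reads) in replicate 2. Its mean was 8764 ± 2417 CPM (SD, n = 2). It was higher in replicate 2, opposite to Mir322, and its share of the cluster's reads was 19.0% in replicate 1 and 40.9% in replicate 2. Mir322 exceeded Mir351 by 3.91-fold in replicate 1 and by 1.24-fold in replicate 2, so the size of this ratio was not stable between the libraries.

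Mir542, which lies alone between the upstream group and the Mir450 genes, had 810.0 CPM (6141 reads) in replicate 1 and 913 CPM (9005 reads) in replicate 2. It was among the most even members in level, at 861 ± 72.7 CPM (SD, n = 2). Mir503 was 1.64-fold above Mir542 in replicate 1 and only 1.06-fold above it in replicate 2.

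The 3 Mir450 genes were the lowest members. Mir450b had 279.6 CPM (2120 reads) in replicate 1 and 132 CPM (1307 reads) in replicate 2, a mean of 206 ± 104 CPM (SD, n = 2). Mir450-2 had 73.3 CPM (556 reads) in replicate 1 and 88.2 CPM (870 reads) in replicate 2. Mir450-1 had 28.0 CPM (212 reads) in replicate 1 and 9.22 CPM (91 reads) in replicate 2. Among these, Mir450-1 and Mir450b were higher in replicate 1 and Mir450-2 was higher in replicate 2. Since reads of the shared miR-450a-5p are left out of both copies, the low values of Mir450-1 and Mir450-2 are no measure of mature miR-450a.

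**Figure D2:**
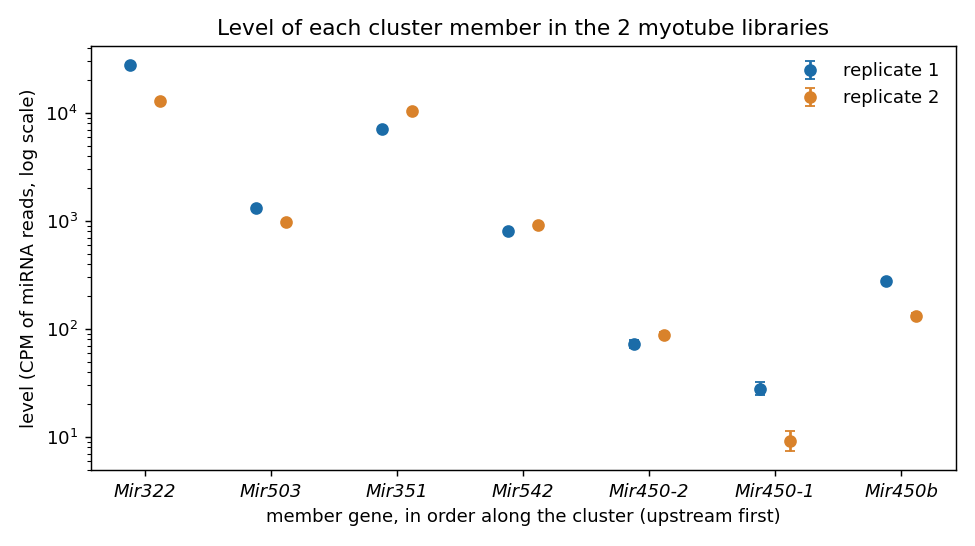
Level of each member (CPM of miRNA reads, log axis) in replicate 1 and replicate 2, in order along the cluster, with bars for the 95% exact Poisson interval of the read count. The order of the 7 levels is the same in both libraries, and Mir322 spans 13017 to 27578 CPM while Mir450-1 spans 9.22 to 28.0 CPM.

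The order of levels, Mir322, Mir351, Mir503, Mir542, Mir450b, Mir450-2 and Mir450-1, was the same in both libraries. It does not follow the order of the hairpins on the transcript, in which Mir503 precedes Mir351 and Mir450b comes last. In each of the 21 pairs of members the values of the higher gene in both libraries lay above those of the lower gene. The closest neighbours were Mir503, at 969 CPM or more, and Mir542, at 913 CPM or less. An exact two-sided paired permutation test over 2 libraries has 0.5 as its smallest possible p, and the order was therefore not tested. The order is one of reads, as the recovery of each sequence was not measured. The whole cluster covered a 986-fold range of levels in replicate 1 and a 1411-fold range in replicate 2, from which the uncertain Mir450-1 at the lower end takes much of the width. Mir322 lay 98.6-fold above Mir450b in replicate 1 and 98.2-fold above it in replicate 2. That ratio, 6.62 ± 0.00402 on the log2 scale (SD, n = 2), and the ratio of Mir542 to Mir450-2, 3.42 ± 0.0659, were the most even of the 21 pairs. The ratio of Mir351 to Mir450-1, 9.06 ± 1.53, was the least even, followed by Mir450-2 to Mir450-1 at 2.32 ± 1.32 and Mir542 to Mir450-1 at 5.74 ± 1.25 (log2, SD, n = 2). All 3 involve the uncertain Mir450-1, and the even ratio of Mir542 involves the uncertain Mir450-2.

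Other genes had levels close to those of the members. By distance in log2(CPM + 1) over the 2 libraries, the nearest gene to Mir322 was Mirlet7i, with 27586 CPM in replicate 1 and 13491 CPM in replicate 2, at a distance of 0.0516. Mir23a and Mir133b came next, at 0.888 and 1.06. For Mir503 they were Mir125b-1, Mirlet7e and Mir423 (0.228 to 0.383), for Mir351 Mir149, Mir100 and Mir27b (0.412 to 0.631) and for Mir542 Mir324, Mir674 and Mir125b-1 (0.326 to 0.493). Mir450b stood nearest to Mir29c, Mir574 and Mir195a (0.142 to 0.274), Mir450-2 to Mir30c-1, Mir30c-2 and Mirlet7c-1 (0.0981 to 0.123) and Mir450-1 to Mir741, Mir598 and Mir3105 (0.174 to 0.707). With 2 libraries these distances describe level and direction of difference only, and of the genes nearest to a member only Mir741 lies on the X chromosome. Nearest genes in numbered copies, such as Mir125b-1, Mir30c-1, Mir30c-2 and Mirlet7c-1, may lack reads shared by the copies. Their values are then levels of uniquely assigned reads and not of the mature miRNA.

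Mir322 held most of the uniquely assigned reads of the group formed by it and its seed relatives. These reads were counted per hairpin gene with both arms together. The seed is that of miR-322-5p only, so the shares below are shares of genes and not of the seed. The list of its relatives, the Mir15, Mir16, Mir195 and Mir497 genes, held 8 genes, of which 6 reached 2 CPM in both libraries. Together they had 4014 CPM in replicate 1 and 1452 CPM in replicate 2, so Mir322 alone exceeded their sum 6.87-fold in replicate 1 and 8.96-fold in replicate 2. Mir322 gave 87.3% of the reads of this group in replicate 1 and 90.0% in replicate 2, a mean of 88.6% ± 1.89 (SD, n = 2). Mir15a, with 2234 CPM in replicate 1 and 643 CPM in replicate 2, was the highest relative. Mir16-1 had 615 and 251 CPM, Mir497 had 360.5 and 247 CPM, Mir195a had 325 and 149 CPM, Mir15b had 288 and 103 CPM and Mir16-2 had 189.5 and 59.5 CPM, in replicates 1 and 2 in turn. Mir195b had no read in either library, and Mir497b, on the strand opposite Mir497 and listed by name only, had 8 and 6 reads and is not among the RefSeq genes with this seed. Mir16-1 and Mir16-2 encode the identical miR-16-5p, whose multimapping reads are in neither count, so the share of Mir322 may be too high. The other genes with this seed in RefSeq, Mir6342, Mir6353 and Mir6419, had no read in either library.

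Mir351 likewise stood above its seed relatives. Mir125a had 1137 CPM in replicate 1 and 1477 CPM in replicate 2, Mir125b-1 had 1139 and 937 CPM, and Mir125b-2 had 315 and 288 CPM. The 3 genes summed to 2591 and 2702 CPM, which Mir351 exceeded 2.72-fold in replicate 1 and 3.88-fold in replicate 2. Mir351 gave 73.1% of the reads of this group in replicate 1 and 79.5% in replicate 2. Mir125b-1 and Mir125b-2 encode the identical miR-125b-5p, whose reads are left out of both, so this share too may be too high. It is again a share of hairpin genes with both arms counted. Mir6367 and Mir6394, which share the seed in RefSeq, had no read. The seed of miR-542-5p is shared with miR-6966-5p, whose gene Mir6966 had 0 and 2 reads, and the seed of the 3p arms of Mir450-1 and Mir450b with miR-6352, whose gene Mir6352 had none.

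**Figure D3:**
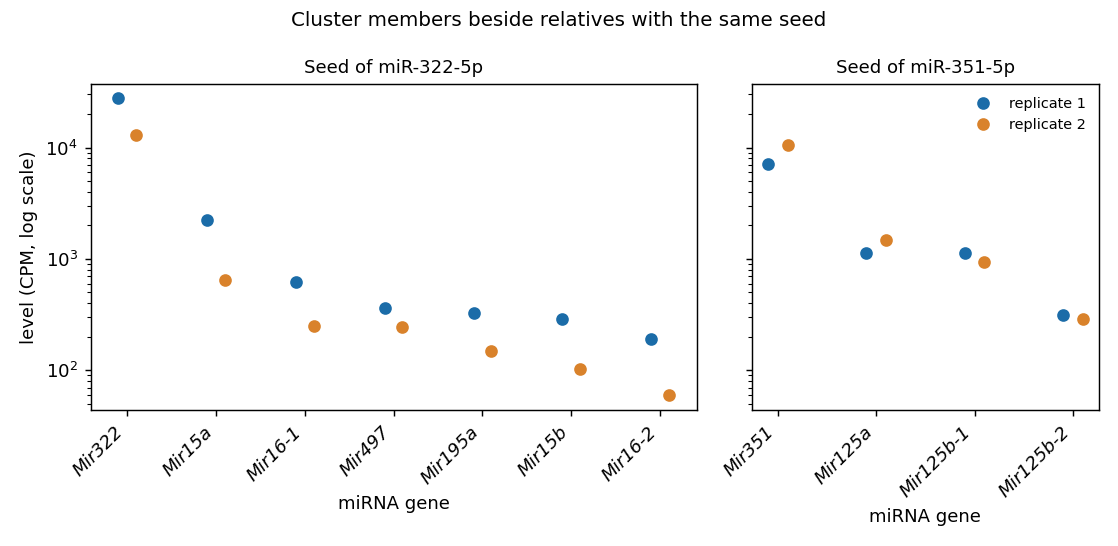
Level (CPM, log axis) of Mir322 and of its 6 detected seed relatives, left, and of Mir351 and its 3 seed relatives, right, in replicate 1 and replicate 2. Mir322 lies above every relative in both libraries, the highest of which is Mir15a at 2234 and 643 CPM, and Mir351 lies above Mir125a at 1137 and 1477 CPM.

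Between the libraries the members did not move as a block. Mir322, Mir503, Mir450b and Mir450-1 were higher in replicate 1, and Mir351, Mir542 and Mir450-2 were higher in replicate 2. All 7 differed by more than counting error (exact two-sided binomial test with TMM effective library sizes, Benjamini-Hochberg adjusted p below 0.05 over 415 genes tested). This test compares the libraries and not conditions, and 231 of the 415 genes (55.7%) passed it, 126 higher in replicate 1 (30.4%) and 105 higher in replicate 2 (25.3%). Every member had at least 303 reads over both libraries, and among the 240 genes with 100 or more reads 205 (85.4%) passed, so a count of 7 of 7 sets the cluster little apart from genes of like depth.

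Mir450-1 had the largest difference, 2.96-fold higher in replicate 1, or 1.57 on the log2 scale (95% exact interval 1.21 to 1.94, adjusted p = 2.52e-19). Mir322 was 2.07-fold higher in replicate 1, at 1.05 (1.04 to 1.06), and Mir450b was also 2.07-fold higher there, at 1.05 (0.947 to 1.15, exact binomial test, adjusted p = 2.61e-97). Mir503 was 1.34-fold higher in replicate 1, at 0.43 (0.386 to 0.467, exact binomial test, adjusted p = 1.45e-94). In the other direction Mir351 was 1.52-fold higher in replicate 2, at -0.60 (-0.615 to -0.585). Mir450-2 was 1.23-fold higher in replicate 2, at -0.30 (-0.453 to -0.141, exact binomial test, adjusted p = 0.000352), and Mir542 was 1.15-fold higher there, at -0.20 (-0.250 to -0.156, exact binomial test, adjusted p = 4.92e-17). The adjusted p of Mir322 and Mir351 was below the range of the software. Along the transcript the 3 genes higher in replicate 2, Mir351, Mir542 and Mir450-2, follow each other, with Mir322 and Mir503 upstream of them and Mir450-1 and Mir450b downstream. Neither the upstream nor the downstream group was therefore of one direction.

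The differences lay within the spread of other genes between the 2 libraries. Over the 274 genes at 2 CPM or more in both, the median size of the difference was 0.52 on the log2 scale. Of these genes, 17.9% were further apart than Mir322, 18.2% further than Mir450b and 9.85% further than Mir450-1. For Mir351, Mir503, Mir450-2 and Mir542 the shares were 44.5%, 57.3%, 69.0% and 78.8%. Fibroblast and smooth muscle markers had their higher sum in replicate 1 and muscle markers theirs in replicate 2, but both directions rest on the most abundant genes of each list. Without Mir21a and Mir143 the fibroblast and smooth muscle sum was 4379 CPM in replicate 1, against 5899 CPM in replicate 2. Without Mir206 the muscle sum was 14474 CPM in replicate 1, against 11481 CPM in replicate 2. These genes were left out after their values were seen. In the fibroblast list 4 of 7 markers were called higher in replicate 1 and 3 higher in replicate 2, and in the muscle list 3 of 9 were called in each direction. Over all genes tested 231 of 415 (55.7%) were called. The muscle calls include 1 copied gene in each direction with few reads, Mir1a-2 (32 and 18 reads) and Mir133a-1 (9 and 28 reads). The part of these markers in the differences of the cluster was not tested.

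**Figure D4:**
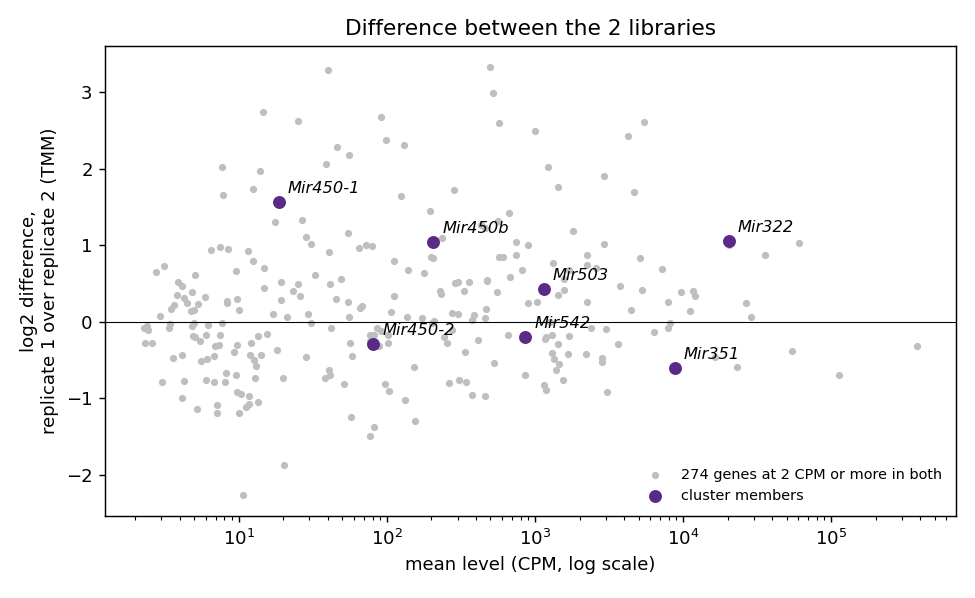
Log2 difference of replicate 1 over replicate 2 (TMM-scaled) against mean level (CPM, log axis) for the 274 genes at 2 CPM or more in both libraries, with the 7 members marked. Members run from -0.60 (Mir351) to 1.57 (Mir450-1), within the spread of the other genes.

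The detected seed relatives of Mir322 differed in the same direction as Mir322. Of 7 listed relatives tested, 6 were called and all 6 were higher in replicate 1. The median difference was 1.26 on the log2 scale over the 7, against 0.43 over the members and 0.02 over all genes tested. Mir15a was 3.40-fold and Mir497 1.43-fold higher in replicate 1, the highest and lowest of the 6. The exception, Mir497b, stood at 0.74 on the log2 scale (exact binomial test, adjusted p = 0.528). It is listed by name only and not among the RefSeq genes with this seed, but counts in the median of 1.26. Among the 240 genes with 100 or more reads 205 (85.4%) were called, 117 of them higher in replicate 1, with a median of 0.12 over the 240. The 6 called relatives are neighbours in pairs, Mir15a with Mir16-1, Mir15b with Mir16-2 and Mir497 with Mir195a. They are therefore not 6 separate cases. Of the 3 relatives of Mir351, Mir125a was 1.33-fold higher in replicate 2, as Mir351 was. Mir125b-1 and Mir125b-2 were 1.19-fold and 1.07-fold higher in replicate 1, and all 3 were called. The counts of Mir125b-1 and Mir125b-2 lack the multimapping reads of miR-125b-5p, so the same limit holds for them.

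Other clusters of the same kind also had members in both directions. In the Mir17-92 cluster, an oncogenic cluster tied to proliferation, 5 of 6 genes were called, 3 higher in replicate 1 and 2 higher in replicate 2, over a span of 4.86 on the log2 scale. The low end of that span is Mir19b-1, at -1.87 with 66 reads in replicate 1 and 310 in replicate 2. It has a further copy, Mir19b-2, so its count may lack reads shared by the copies. In the Mir532 cluster on X, 5 of 5 genes were called, 2 higher in replicate 1 and 3 higher in replicate 2, over a span of 1.51. Of all genes with 100 or more reads 85.4% were called. The span of the Mir322 cluster was 2.17, and without the uncertain copies its extremes were Mir351 and Mir322. The difference between the clusters in span was not tested.

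**Figure D5:**
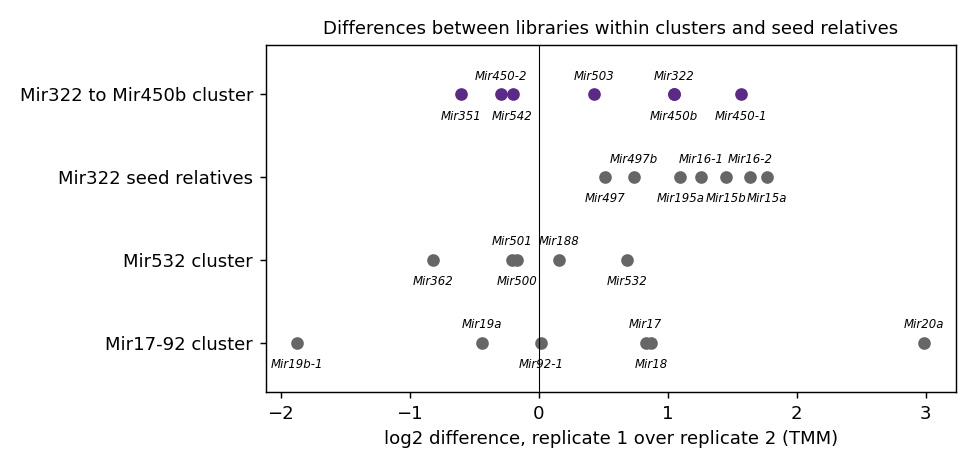
Log2 difference of replicate 1 over replicate 2 (TMM-scaled) for each tested gene of the Mir322 to Mir450b cluster, of the Mir322 seed relatives, and of the Mir532 and Mir17-92 clusters, 1 point a gene. The members lie on both sides of 0, from -0.60 to 1.57, while the 7 listed relatives, of which Mir497b was not called, all lie above 0.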

How the data were processed

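Small RNA from 2 libraries of C2C12 myotubes (1 group, 72 h) was counted by the authors per miRNA gene on mm10 with annotation M21, per the file headers. The deposited values are raw read counts in 3 columns, and from the values these ignore strand, hold the gene's own strand and hold the opposite strand. The aligner, counter and trimming were not given in the sources used here. Summary lines that name no gene (multimapping reads 22.0% and 17.9%, unmapped reads 22.7% and 23.1%, reads outside miRNA genes 5.88% and 5.57% of 15349205 and 18450359 reads) were left out of totals and tests.

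All 2202 identifiers matched GENCODE M21, whose GRCm38 coordinates (1-based) are those of mm10. Sequences came from RefSeq (GRCm38.p6), and shared runs from exact matches among GENCODE hairpins on both strands, with no search of the whole genome. CPM used own-strand miRNA reads. Genes with 10 or more reads in total entered an exact two-sided binomial test of replicate 1 against replicate 2 on TMM effective sizes (edgeR 4.0.16, R 4.3.3) with Benjamini-Hochberg adjustment at 0.05. edgeR's quasi-likelihood test has no contrast in 1 group. Ratios used a pseudocount of 0.5 reads. The test was checked on simulated Poisson counts only, which hold no spread between cultures beyond counting error. Python 3.11.15, numpy 2.4.6, scipy 1.17.1 and pandas 2.3.3 were used. Alternatives, with DESeq2 1.42.0 size factors among them, are given in the closing section.

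The members, lists and comparisons were chosen with earlier results of these data known. Named genes were the 7 members, all genes sharing a member's seed, the listed genes, and the 3 genes nearest to each member in log2(CPM + 1) among those at 2 CPM or more in both libraries. Of 71 listed names 70 matched, and Mir660 did not.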

Additional observations from a re-analysis of the deposited data

Results flagged for a closer look

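Signal outside the own-strand counts of miRNA genes exceeded 3 reads, the limit behind a count of 0. There were 3378438 multimapping reads in replicate 1 and 3295854 in replicate 2, and reads of miR-450a-5p, which is identical in Mir450-1 and Mir450-2, would fall among them. Reads mapped outside miRNA genes numbered 903243 in replicate 1 and 1027420 in replicate 2. Among these, 75 in replicate 1 and 97 in replicate 2 met a miRNA gene on the opposite strand only, and no member of the cluster had an opposite-strand read. A single group of 2 libraries allowed no search for outlying samples or for effects that differ between groups.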

How the results depend on the processing

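Among the alternatives run, the direction of all 7 members between the libraries and the call of each were the same with DESeq2 size factors and library totals. They were also the same with a minimum of 100 reads, no filter on low counts, and the count that ignores strand. The changes of filter leave each log2 difference as it is, so they cannot change a direction. With strand ignored the members' reads are equal and only the library sizes differ, so this setting bears little on direction. The log2 difference of Mir542, the smallest, ranged from -0.23 to -0.17. The count of genes called was 205 to 230 under these settings, against 231, but over different numbers tested: 205 of 240 (85.4%) with 100 reads and 221 of 708 (31.2%) with no filter, against 55.7% of 415. All 21 log2 ratios between members had the same sign in either library alone and with a pseudocount of 5 reads. The count that ignores strand is equal for the members, and leaving out 1 of 2 libraries moves a mean by a fixed part of its SD, so neither bears on how stable the ratios are. The cluster's share of reads depends on the denominator by construction. It was 1.60% of all reads and 5.01% of miRNA reads without Mir206, against 3.14%, and the median level of the members was 444 CPM and 1397 CPM under these denominators, 986 CPM with strand ignored and 861 CPM as reported. Strand made no difference to the members' own reads, which were equal in both columns for all 7, but the total is smaller when strand is ignored. Leaving out a replicate gave a share of 2.56% or 3.72%, a Mir322 share of the cluster of 50.8% or 74.2%, a median level of 810.0 or 913 CPM and a median log2 ratio of Mir322 to the other members of 5.23 or 5.86. With 10 CPM as the limit 6 members were detected, Mir450-1 falling out in replicate 2. The test between libraries could not be run without a replicate. No paired analysis was possible because there is only 1 group. Read depth limits Mir450-1 most, and 2 libraries limit every mean.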

Other observations

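Mir322 and its neighbours were the main source of X-linked miRNA reads. Of 142 miRNA genes on the X chromosome, 29 reached 2 CPM in both libraries, and Mir322 and Mir351 ranked 1 and 2 among them by mean level. In replicate 1 alone Mir532, at 9014 CPM, lay above Mir351, at 7055 CPM. The cluster held 59.7% of X-linked miRNA reads in replicate 1 and 59.1% in replicate 2, nearly the same share although X-linked genes took 6.22% of all miRNA reads in replicate 1 and 4.33% in replicate 2. The Mir532 cluster followed with 16913 CPM in replicate 1 and 13702 CPM in replicate 2. Of 14 other listed X-linked genes, 10 were tested, 7 were called higher in replicate 1 and 1 higher in replicate 2 by the exact binomial test. Over all 415 genes tested 30.4% were called higher in replicate 1 and 25.3% higher in replicate 2. Of genes with 100 or more reads 85.4% were called in either direction. Listed genes in numbered copies, such as Mir19b-2, Mir92-2 and Mirlet7f-2, may lack reads shared by the copies. Mir221 led the 14 listed genes, with 3915 CPM in replicate 1 and 1894 CPM in replicate 2, while its cluster partner Mir222 had 501 and 437 CPM. Mir98 was 6.05-fold higher in replicate 1. Mir20b and Mir363 of the X-linked Mir106a-363 cluster had no read in either library.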
